A study of Mus musculus with 2 samples.

Results

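Mir143, Mir145a and Mir145b are the mouse genes of the microRNAs miR-143 and miR-145, which are best known from smooth muscle. They were taken as the rows of the deposited count tables whose gene identifier carries one of these names in the GENCODE M21 annotation. This gave 3 genes of 2202, and all 3 identifiers were found in both tables. Small RNA was sequenced from whole heart tissue of B6CASTF1/J mice, a hybrid strain, all female and 4 days old. There were 2 libraries, from the animals numbered 3 (replicate 1) and 4 (replicate 2), and the labels gave both the same donor entry. Both libraries belonged to 1 group with no treatment named, so the data show the levels of these genes and their spread over the libraries. Each animal number has a single library, so differences between hearts and between library preparations cannot be told apart.

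MicroRNAs are short RNAs cut from a hairpin that lower the output of messenger RNAs which pair with them, mainly through the seed, bases 2 to 8 of the mature strand. Mir143 and Mir145a lie next to each other and are known to be transcribed together under serum response factor and its coactivator myocardin. Their known targets include Klf4, Klf5 and Elk1, regulators that hold smooth muscle in a proliferating state, and mice without the cluster have thin arterial walls with less contractile smooth muscle. In the mouse the cluster is also known to be active in the early embryonic heart, before its expression becomes largely a feature of smooth muscle.

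To set the cluster in its context, 20 other microRNA genes described in smooth muscle were examined with it, 10 tied to the contractile state and 10 tied to growth. RefSeq (GRCm38.p6) matched 17 of these 20 genes and 0 of the 3 genes Mir143, Mir145a and Mir145b, which are named only. The mature strands below belong to genes of the lists, and to Mir126a, that are set beside Mir143 in the comparisons, and the capitals mark the seed. The first 3 share a seed, and so do miR-221 and miR-222, which makes each set a family with overlapping targets.
miR-15b-5p: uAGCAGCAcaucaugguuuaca
miR-195a-5p: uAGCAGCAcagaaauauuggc
miR-322-5p: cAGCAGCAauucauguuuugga
miR-221-3p: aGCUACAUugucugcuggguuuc
miR-222-3p: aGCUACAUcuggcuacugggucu
miR-21a-5p: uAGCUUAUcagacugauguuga
miR-126a-3p: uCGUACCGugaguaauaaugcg
These strands lie at chr3:69009775-69009796 (plus strand), chr11:70235062-70235082 (plus), chrX:53054306-53054327 (minus), chrX:19146307-19146329 (minus), chrX:19146901-19146923 (minus), chr11:86584120-86584141 (minus) and chr2:26591402-26591423 (plus), in the order printed. The counts analysed here are per hairpin gene and do not tell its 2 arms apart.

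In mm10, Mir143 (ENSMUSG00000065445.3) spans 63 bases of the minus strand of chromosome 18, from 61649196 to 61649258. Mir145a (ENSMUSG00000065592.2) spans 70 bases of the same strand, from 61647825 to 61647894, with 1301 bases between the hairpins. No other annotated gene overlaps either of them. The closest gene to Mir143 is Carmn, a long non-coding RNA known as the host transcript of the cluster, which the annotation ends 366 bases upstream on the same strand. On the other side, Bvht, a long non-coding RNA known in mouse from cardiac lineage commitment, ends 352 bases from Mir145a on the opposite strand. Mir145b (ENSMUSG00000098366.1) is not part of this cluster. It spans 75 bases of the minus strand from 69022199 to 69022273, which is 7.37 megabases away, and its closest gene, the long non-coding RNA 4930546C10Rik, lies 70670 bases off.

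The libraries held 6417302 reads over microRNA genes in replicate 1 and 5662222 in replicate 2, and levels are given as CPM, each gene's counts scaled to a common library total. A further 39.6% and 43.2% of all reads in replicates 1 and 2 matched several places and are in no gene's count. Of the 2202 genes, 373 were detected, with 10 or more counts in both libraries, and 1415 (64.3%) had 0 counts throughout. Markers of other cell types showed what the tissue held: the cardiomyocyte genes Mir208a, Mir208b and Mir499 summed to 20993 CPM in replicate 1 and 19146 CPM in replicate 2. The smooth muscle list consisted of the 3 genes described here, so no separate marker in these tables tells whether their reads came from smooth muscle. In whole tissue, the number of cells of a type and the amount of RNA per cell cannot be told apart.

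By counted reads, Mir143 was among the most abundant microRNA genes of both hearts. It held 293230 counts in replicate 1 and 332468 in replicate 2, or 45694 and 58717 CPM. The mean was 52205 ± 9209 CPM (SD, n = 2), and the gene ranked 5th of all genes in each library. Its share of counts was 4.57% in replicate 1, with a 95% Clopper-Pearson interval of 4.55 to 4.59. In replicate 2 the share was 5.87%, with an interval of 5.85 to 5.89. The intervals cover counting error only and are far narrower than the gap between the libraries, so depth does not limit this value. With unmapped, multi-mapped and unassigned reads in the total, Mir143 still made up 2.03% and 2.46% of all reads. Ranks here and below leave out multi-mapped reads, so genes that lose many of them can stand too low.

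The genes directly around Mir143 in the ranking were Mirlet7g and Mir126a above it, and Mir23b and Mirlet7d below it. Mir126a, a gene of endothelial cells, held 51829 CPM in replicate 1 and 73011 CPM in replicate 2. Mir23b held 42469 and 39556 CPM. The order Mir126a, Mir143, Mir23b held in both libraries. Mir23b and its paralog Mir23a have near-identical mature strands, which the counting could split, so the place of Mir23b is uncertain.

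Mir145a was a gene of intermediate level. It held 8736 counts in replicate 1 and 9138 in replicate 2, or 1361 and 1614 CPM, with a mean of 1488 ± 179 CPM (SD, n = 2). It ranked 66th in replicate 1 and 61st in replicate 2. Its share of counts was 0.136% in replicate 1 (0.133 to 0.139) and 0.161% in replicate 2 (0.158 to 0.165). Its neighbours by mean level did not keep their order. Mir484 held 1870 CPM in replicate 1, above Mir145a, and 1098 CPM in replicate 2, below it. Mir320 and Mir106b lay above Mir145a in replicate 1 and below it in replicate 2, and Mir455 lay below it in both. The order of Mir145a against Mir320, Mir106b and Mir484 thus changed between the libraries. Mir455 held 1358 CPM in replicate 1 and 1489 CPM in replicate 2.

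**Figure D1:**
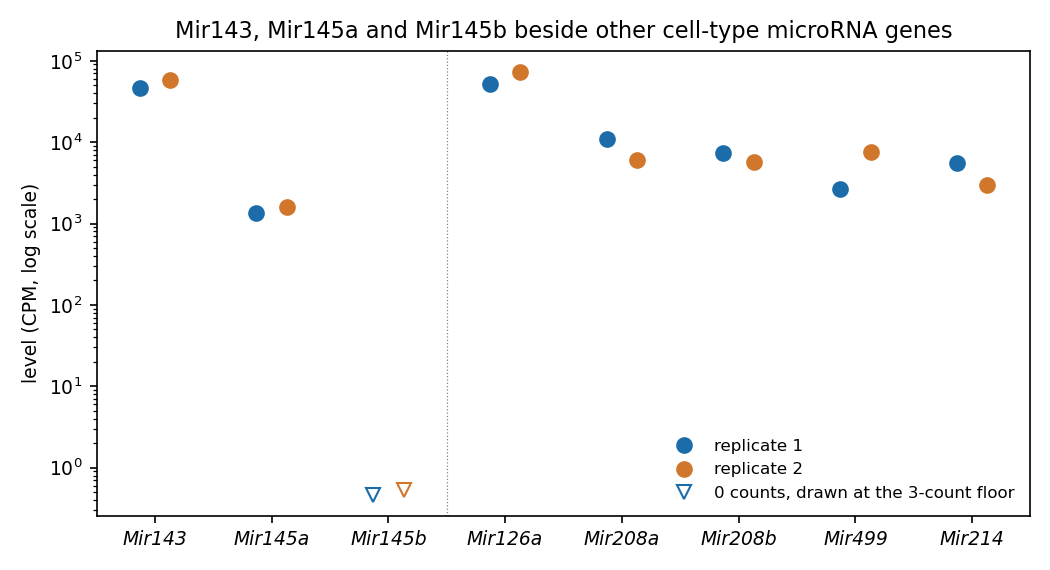
Level in CPM (log axis) of Mir143, Mir145a and Mir145b, left of the dotted line, and of 5 marker genes of other cell types, right of it, with 1 point per library. Mir143 lies at 45694 and 58717 CPM in replicates 1 and 2, close to the endothelial gene Mir126a, Mir145a lies at 1361 and 1614 CPM, and Mir145b, with 0 counts, is drawn as open triangles at the level that 3 counts would give.

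Mir145b had 0 counts in both libraries. A count of 0 allows up to 3 counts, which corresponds to 0.467 CPM in replicate 1 and 0.530 CPM in replicate 2. Mir145b was thus at least 2912-fold lower than Mir145a in replicate 1 and at least 3046-fold lower in replicate 2. The longest stretch it shares with any of the 2201 other hairpins is 17 bases, at bases 17 to 33 of its own hairpin and bases 7 to 23 of Mir145a. A read confined to that stretch would match both genes and, as a multi-mapped read, be in neither count. A longer read that matches exactly is specific to 1 of them among annotated microRNA genes. How many mismatches the aligner allowed was not given.

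**Figure D2:**
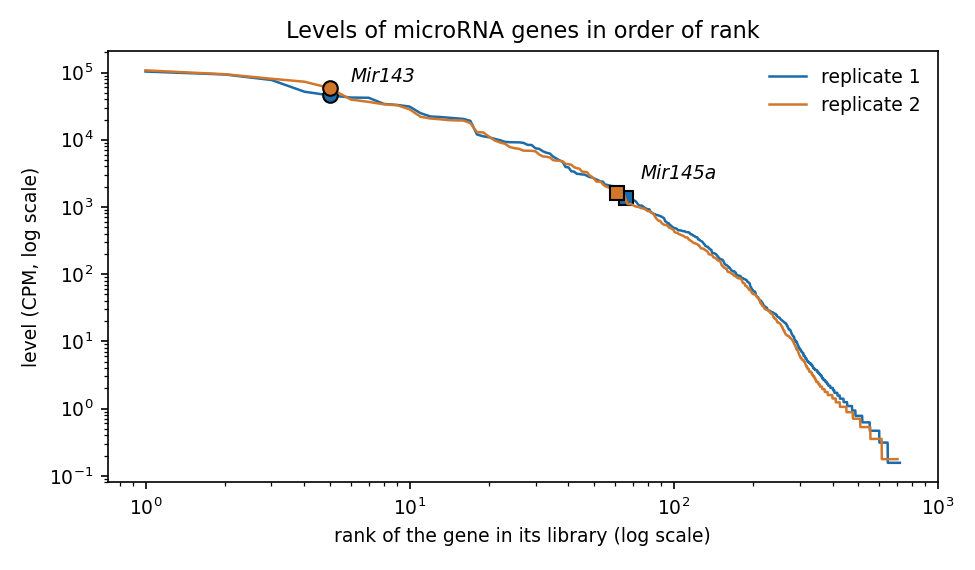
Level in CPM against rank for every gene with a count, both on log axes, with 1 line per library; circles mark Mir143 and squares mark Mir145a. Mir143 stands at rank 5 in both libraries, and Mir145a stands at rank 66 in replicate 1 and 61 in replicate 2. Ranks are by counted reads, which leave out multi-mapped reads.

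The reads of the cluster came from 1 strand. Mir143 and Mir145a had 0 counts in the opposite-strand column in both libraries, and their counts without regard to strand were identical to those of their own strand. This was so for 327 of the 373 detected genes (87.7%). By contrast, 32 pairs of microRNA genes overlap on opposite strands, of which 24 hold a detected gene. In all 24 the column without strand lost over 50% of that gene's counts, Mir126a among them, and none of the 32 pairs holds Mir143, Mir145a or Mir145b. Nor did any of the 3 share a stretch of 20 bases with another microRNA gene outside itself, a property that 1087 of the 2202 genes have. For Mir143 the longest shared stretch was 11 bases. The search covered annotated microRNA hairpins alone.

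Within the cluster, most counts belonged to Mir143. Whether the 2 genes are captured equally well in a library was not tested. The ratio of Mir143 to Mir145a counts was 33.6 in replicate 1, with a 95% interval of 32.9 to 34.3. It was 36.4 in replicate 2, with an interval of 35.6 to 37.2, and 35.0 ± 1.99 on average (SD, n = 2). Divided by hairpin length, the ratios were 37.3 and 40.4, although reads of short mature strands need not scale with hairpin length. By counts, Mir145a made up 2.89% and 2.68% of the reads of the pair. This ratio does not depend on how a library is scaled. It differed between the libraries by more than counting error (Fisher's exact test, two-sided, 1 pair tested, p = 1.12e-07), by 0.12 on the log2 scale. That test compares reads of 2 libraries and holds no spread between animals.

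To place this ratio, every pair of neighbouring microRNA genes on the same strand within 10 kilobases was examined where both genes were detected. There were 94 such pairs, and the median excess of the higher over the lower gene was 6.19-fold. The excess of Mir143 over Mir145a was the 8th highest. Reads that match several genes are in no count, which bears on pairs whose genes have close paralogs. Among the 61 pairs in which neither gene shares 20 bases with another microRNA gene, a subset chosen after the data were seen, the excess of Mir143 was the third highest. The log2 ratio of the pair differed less between the libraries, at 0.12, than the median pair, at 0.49. A smaller difference was found in 15 of the 94 pairs (16.0%), and the widest was 2.30. All pairs come from the same 2 libraries, so this is a description of these libraries.

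**Figure D3:**
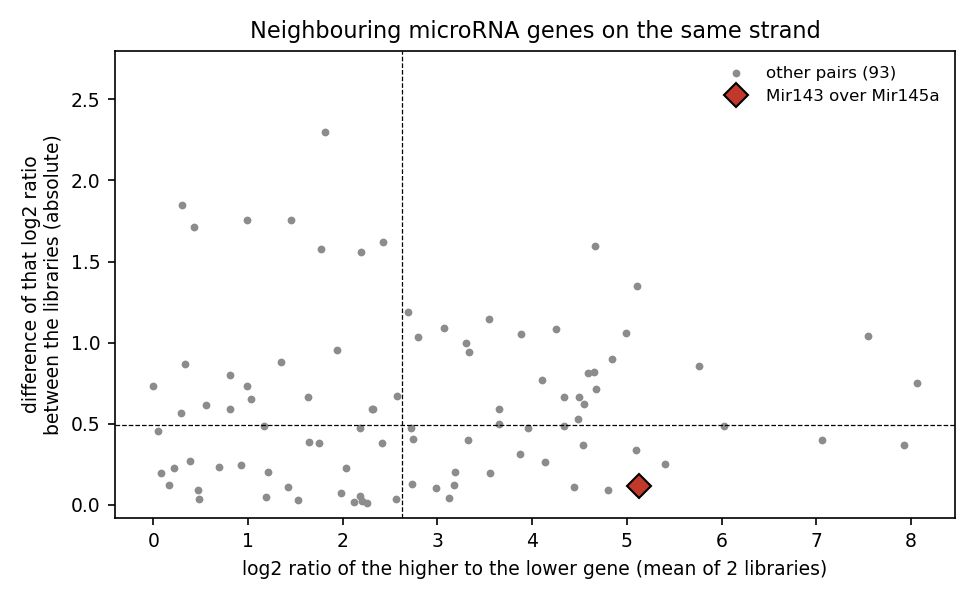
Each point is 1 of 94 pairs of neighbouring microRNA genes on the same strand. The horizontal axis gives the log2 ratio of the higher to the lower gene (mean of 2 libraries), the vertical axis the absolute difference of that log2 ratio between the libraries, and dashed lines the medians. The pair of Mir143 and Mir145a (red diamond) lies at 5.13 on the horizontal axis, right of the median of 2.63, and at 0.12 on the vertical axis, below the median of 0.49.

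Mir143 and Mir145a were both lower in replicate 1 than in replicate 2, but neither passed the threshold for a difference. Library sizes were scaled by TMM, and a gene was called with a fold over 2 and an adjusted p under 0.05 in an exact binomial test. The log2 ratio of replicate 1 over replicate 2 was −0.69 for Mir143 (counting SE 0.0037, 1.62-fold higher in replicate 2). For Mir145a it was −0.58 (counting SE 0.022, 1.49-fold higher in replicate 2; exact binomial test, Benjamini-Hochberg adjusted p = 2.93e-156). For Mir143 the p was smaller still, so both differences exceed counting noise while staying inside 2-fold. Mir145b had too few counts to be tested. Of 491 genes tested, 55 were called (11.2%), 18 higher in replicate 1 and 37 higher in replicate 2, against 0 of the 2 tested genes of the cluster. Among the 71 genes with at least 1000 CPM in each library, 9 were called (12.7%), all higher in replicate 2.

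The size of these differences was above the middle of the range. The absolute log2 ratio of Mir143 exceeded that of 70.9% of the 491 genes and that of Mir145a exceeded 64.4%, where the median was 0.44. Among the 71 abundant genes the median log2 ratio was −0.19, and 47 of them were below 0. Scaled by total counts instead, every log2 ratio lies 0.33 higher, which gives −0.36 for Mir143 and −0.25 for Mir145a. The median of the abundant genes then lies above 0, while both genes of the cluster stay below it. When the spread was estimated from the libraries themselves, as 1 group, both genes had an adjusted p of 1 in edgeR's exact test, which called 4 of the 491 genes. A gene not called in that test may still differ.

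**Figure D4:**
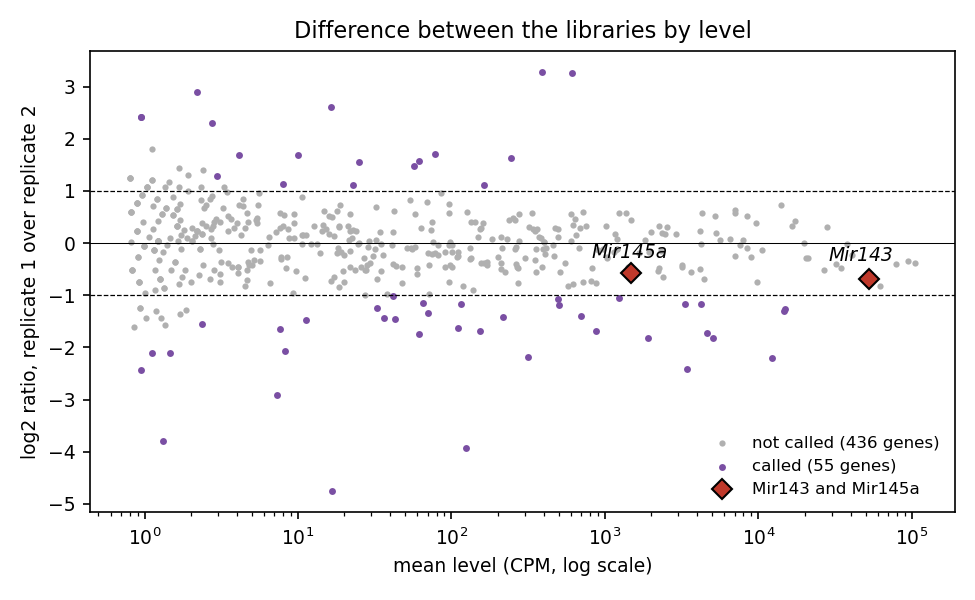
Log2 ratio of replicate 1 over replicate 2 against mean level in CPM (log axis) for the 491 genes tested, with TMM scaling and dashed lines at 2-fold. Mir143 (−0.69) and Mir145a (−0.58), red diamonds, lie between 0 and the lower dashed line, and the 55 called genes are in purple.

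The genes whose difference between the libraries was most like that of Mir143 were taken from the 70 other genes with at least 1000 CPM in each library, by distance on the log2 ratio over 2 libraries. They were Mirlet7f-2 (distance 0.0086), Mir15b (0.052), Mir30a (0.052), Mir145a (0.12) and Mir126a (0.13). Mir145a, the neighbour of Mir143, was therefore 4th of 70. Mirlet7f-2 held 3878 CPM in replicate 1 and 4953 CPM in replicate 2, and Mir30a held 8360 and 11140 CPM. Reads that match both Mirlet7f-2 and its paralog Mirlet7f-1 are in no count. The level of Mirlet7f-2 can therefore be too low, and its ratio rests on the reads that were counted. With 2 libraries, a like ratio carries no statement about shared control.

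Other cell-type genes differed between the libraries both in the direction of Mir143 and against it. The endothelial list, of which Mir126a is nearly the whole, summed to 51830 CPM in replicate 1 and 73011 CPM in replicate 2, so the ratio of Mir143 to Mir126a was 0.882 and 0.804. The ratio of Mir143 to the cardiomyocyte gene Mir208a was 4.20 in replicate 1 and 9.76 in replicate 2. The ratio to Mir214, a gene of fibroblasts and other mesenchymal cells, was 8.17 and 19.8. Against Mir208a and Mir214, Mir143 therefore stood 2.32-fold and 2.42-fold higher in replicate 2. The cardiomyocyte genes differed among themselves, with log2 ratios of 0.52 for Mir208a, 0.07 for Mir208b and −1.83 for Mir499. Against Mir499, Mir143 thus stood lower in replicate 2. The 4 fibroblast and mesenchymal genes summed to 5656 CPM in replicate 1 and 3034 CPM in replicate 2. Nearly all of it was Mir214, with Mir199a-1 at 0 counts in both. The Mir199 genes are paralogs, and reads that match several of them are in no count, so their counts and these sums can be too low. The log2 ratio was 0.58 for Mir214, against the direction of Mir143, and −0.46 for Mir199a-2 and −0.39 for Mir199b, in its direction. Of the genes tested, 0 of 3 on this list and 1 of 3 on the cardiomyocyte list were called, beside 11.2% of all genes. The 1 was Mir499, higher in replicate 2 (log2 ratio −1.83; adjusted p = 0.56 in edgeR's exact test). The part of cell composition in the difference of Mir143 was not tested.

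The 10 genes tied to the contractile state spanned a wide range of levels. All 10 had counts in both libraries, and 8 were detected. Mirlet7d (42126 CPM in replicate 1 and 33657 CPM in replicate 2) and Mir322 (24892 and 28379 CPM) came closest to Mir143 and lay below it in both libraries. Mir15b (2131 and 2643 CPM) lay above Mir145a in both. Mir322, Mir15b and Mir195a, which carry the same seed as printed above, are known to restrain the cell cycle. Mir34a held 1055 and 1002 CPM, and Mir10a, known from retinoic acid-driven smooth muscle differentiation of mouse stem cells, held 698 and 924 CPM. The 4 genes of miR-1 and miR-133, known in smooth muscle as in heart muscle, had between 2 and 190 counts. The mature strands of their copies are identical and lose reads to multi-mapping, so these counts do not measure the microRNAs. The list summed to 71424 CPM in replicate 1 and 67906 CPM in replicate 2. Both sums include the 4 genes that lose reads and can be too low. Mir143, which is not on the list, held 0.640 and 0.865 times these sums.

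Of these 10 genes, 0 were called higher in replicate 1, 2 were called higher in replicate 2 and the other 8 were not called, beside 11.2% of all genes tested. Mir195a had 492 CPM in replicate 1 and 1257 CPM in replicate 2 (log2 ratio −1.68). Mir1a-1 had 9 and 19 counts (−1.55), and was not called when libraries were scaled by total counts. Under that scaling Mir133a-2, with 12 counts in replicate 1 and 2 in replicate 2, was called higher in replicate 1 (2.14). In edgeR's exact test neither Mir195a (adjusted p = 0.63) nor Mir1a-1 (adjusted p = 1) was called. The median log2 ratio of the list was −0.69, beside −0.02 for all genes tested.

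By counted reads, the 10 genes tied to growth of smooth muscle lay lower. All 10 were detected. Mir21a, which is known to rise in injured arteries and to favour proliferation, held 5250 CPM in replicate 1 and 19313 CPM in replicate 2. Mir130a followed with 9189 and 7769 CPM. Mir221, which together with Mir222 lowers the cell cycle inhibitor p27, held 571 and 369 CPM, and Mir222 held 121 and 49.1 CPM. Both of them lay below Mir145a in both libraries. The remaining 6 genes, Mir146, Mir31, Mir24-1, Mir24-2, Mir26a-2 and Mir26a-1, held means between 4.81 and 579 CPM. The main mature strand is identical within the Mir24 pair and within the Mir26a pair, so their counts miss multi-mapped reads. By counted reads, Mir143 alone held 2.83 times the summed level of the list in replicate 1 and 2.01 times in replicate 2. These sums miss the same multi-mapped reads.

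Of the growth genes, 0 were called higher in replicate 1, and the 3 called higher in replicate 2 were Mir21a (log2 ratio −2.21), Mir31 (−2.18) and Mir26a-2 (−3.92, with 122 counts in replicate 1 and 1298 in replicate 2). The other 7 were not called, and the share over all genes tested was 11.2%. In edgeR's exact test Mir26a-2 was called (adjusted p = 0.00063), while Mir21a (0.24) and Mir31 (0.25) were not. Mir222 had a log2 ratio of 0.96 and was called higher in replicate 1 when scaled by total counts (1.29). Mir221 had a log2 ratio of 0.30. The median of the list was −0.40, beside −0.02 for all genes tested. Mir143 was 8.70 times Mir21a in replicate 1 and 3.04 times in replicate 2.

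**Figure D5:**
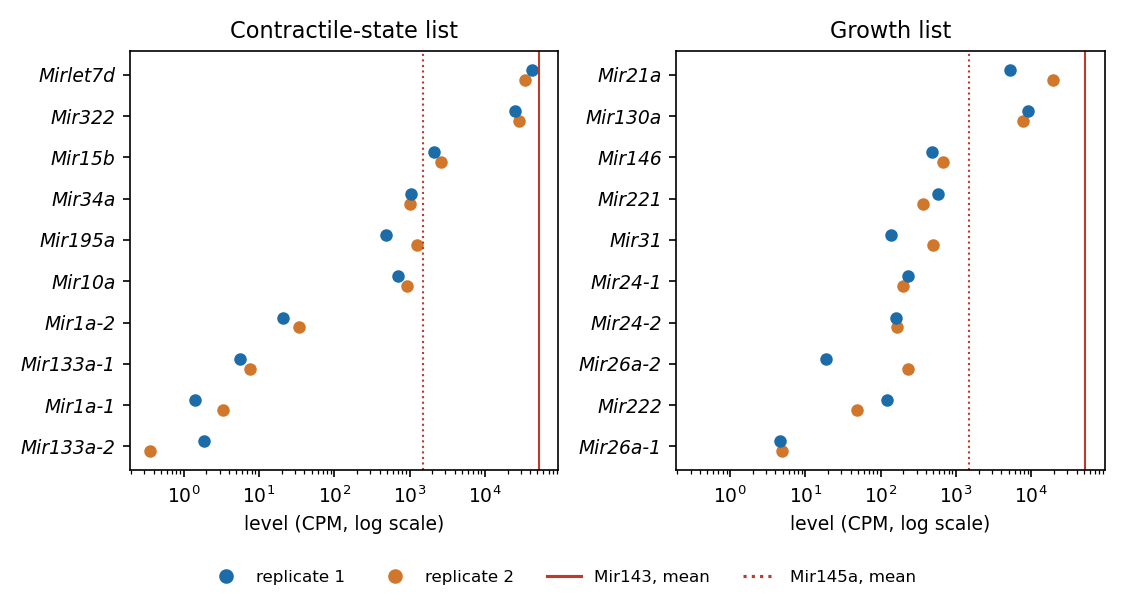
Level in CPM (log axis) of 10 microRNA genes tied to the contractile state of smooth muscle (left) and 10 tied to its growth (right). There is 1 point per library. The genes of miR-1 and miR-133, the Mir24 pair and the Mir26a pair miss multi-mapped reads. Red lines give the mean of Mir143 (solid, 52205 CPM) and of Mir145a (dotted, 1488 CPM); all points lie below the Mir143 mean, and of the growth genes only Mir21a and Mir130a lie above the Mir145a mean.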

How the data were processed

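Small RNA libraries of 2 hearts were analysed. The deposited values are raw read counts per microRNA gene, 1 table per library with no pooling; the build mm10 and the annotation GENCODE M21 are named in the deposited file descriptions. The aligner, the counter and any trimming were not given in the sources used here. Every table has 3 columns of counts (without strand, own strand, opposite strand) and 4 summary entries, which hold 55.6% and 58.0% of reads in replicates 1 and 2 and stayed out of totals and tests. The own-strand column was used.

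CPM was computed on the own-strand total. Genes with at least 10 counts in the sum were compared between the libraries by an exact conditional binomial test (two-sided) on TMM-scaled sizes (factors 1.12 and 0.891; edgeR 4.0.16, R 4.3.3), adjusted by Benjamini-Hochberg over 491 genes, after adding 0.5 to counts for the log2 ratio. The test compares 2 libraries. Alternatives were DESeq2 1.42.0 size factors, total-count scaling, other filters, pseudocounts and the column without strand, and edgeR's exact test. Intervals are exact (Clopper-Pearson) at 95%, floors are 3 counts, and both cover counting error only, since no molecular identifiers are named. Python 3.11.15, scipy 1.17.1 and pandas 2.3.3 were used. Named genes were the cluster, its 2 neighbours in rank on each side, the 5 genes nearest Mir143 in log2 ratio, and the lists. The genes and lists were chosen with earlier results of these data known. The own-strand comparison planned for Mir145a and Mir145b assumed that they lie close together, which the annotation does not show.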

Additional observations from a re-analysis of the deposited data

How the results depend on the processing

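The log2 ratios of Mir143 and Mir145a kept their sign and stayed inside 2-fold in all 14 alternatives, from −0.72 to −0.36 for Mir143 and from −0.60 to −0.25 for Mir145a. The values nearest 0 came from scaling by total counts. A pseudocount of 5 and edgeR's exact test kept the same library sizes, so at these counts they could hardly move the ratios. The number of genes called was 55, between 40 and 61 in 6 alternatives, and 4 by edgeR's exact test with an estimated dispersion, which had 26 genes at an unadjusted p under 0.05. Levels depend on what is put in the total. Mir143 held 65298 CPM in the column without strand, 22464 CPM with all reads in the total and 121058 CPM without the 10 most abundant genes, itself among them. For Mir145a these values were 1860, 641 and 3446 CPM. Leaving out a replicate in turn gave 45694 to 58717 CPM for Mir143, 1361 to 1614 CPM for Mir145a and 33.6 to 36.4 for their ratio. The pair's place by excess was 8 of 94, 8 of 100 within 50 kilobases, 7 of 75 with at least 100 counts per gene, and 3 of 61 without genes that share 20 bases. The alternative within 1 kilobase gave no value, since the genes lie 1301 bases apart. No paired analysis was possible because all libraries belong to 1 group. Depth does not limit the levels of Mir143 and Mir145a, and multi-mapped reads are in no count.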

Other observations

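Blood and epithelial microRNA genes were low beside Mir143 by counted reads. The 3 erythroid genes Mir451a, Mir144 and Mir486 summed to 788 CPM in replicate 1 and 300 CPM in replicate 2, and Mir143 held 58.0 and 196 times their level. Mir486 overlaps another microRNA gene, Mir3107, on the opposite strand. Reads that match several places are in no count, so the erythroid sums can be too low and these ratios too high. The 4 leukocyte genes Mir142, Mir223, Mir155 and Mir150 summed to 1301 and 872 CPM. The 7 epithelial genes, led by Mir200c (420 CPM in replicate 1 and 284 CPM in replicate 2), summed to 595 and 662 CPM, and Mir143 held 76.8 and 88.6 times that level. Of the erythroid genes 2 were called higher in replicate 1, Mir451a (log2 ratio 1.64) and Mir144 (1.56), a direction opposite to that of Mir143. Of the leukocyte genes Mir142 was called higher in replicate 1 (1.12) and Mir223 higher in replicate 2 (−1.17). Mir223 was not called under scaling by total counts. Epithelial genes called were Mir205 (−4.76, with 9 counts in replicate 1 and 180 in replicate 2), Mir203 (−1.69) and Mir200b (−1.45), all higher in replicate 2. The other 4 were not called, and of these Mir200c (log2 ratio 0.23) and Mir141 (0.32) were higher in replicate 1. Over all 491 genes tested, 11.2% were called, 18 higher in replicate 1 and 37 higher in replicate 2. Of the 7 genes called on these lists, edgeR's exact test called Mir205 (adjusted p = 0.00017) and none of the other 6, whose adjusted p lay between 0.63 and 1.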
